A study of Caenorhabditis elegans with 12 samples.

Results

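The comparison set 3 small RNA libraries of worms treated with rotenone against 3 libraries of worms given the solvent, all labelled 5 days old, out of 12 libraries in the series. These 6 libraries were chosen by their labels for age and treatment, with no use of measured values. All were made from whole hermaphrodites of N2, the Bristol wild-type strain of Caenorhabditis elegans, and none of them carries a mutation or a transgene according to the labels. The control worms had 0.1% DMSO, and the treated worms had 100 nM rotenone for 24 h, beginning at the fourth larval stage (L4). The labels do not say from which event the 5 days are counted, whether the rotenone was dissolved in DMSO, or whether the 3 libraries of a group came from separate cultures. The p-values therefore rest on the spread of these samples alone, and that spread may be technical. Of the 250 microRNA hairpins in the table, 177 had enough counts to be tested in these 6 libraries.

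MicroRNAs are short RNAs cut from hairpin precursors, and they repress messenger RNAs that pair with the seed near their 5′ end. Members of a family share a seed and can act on shared targets, and several families of the worm are tied to set stages, such as let-7 and lin-4 to the larval stages and miR-35 to oocytes and embryos. Rotenone blocks complex I of the mitochondrial respiratory chain.

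Total counts were 10481528, 9681173 and 8845726 in DMSO replicates 1 to 3 and 11045174, 8891063 and 9615324 in rotenone replicates 1 to 3. Replicates 1 and 2 of both groups carry the lane tag L006 and replicate 3 of both carries L007, so lane was balanced over treatment. The first principal component held 43.0% of the variance and set all 3 rotenone libraries apart from all 3 DMSO libraries. The second held 24.1%, and DMSO replicate 3 lay at its end. That library also had the highest share of miR-58 family reads, 39.3%, against 32.5 to 35.7% in the other 5. By chi-square over its degrees of freedom, which would be near 1 for sampling error alone, it lay 346 and 446 from the other DMSO libraries, which lay 96.8 from each other.

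Rotenone-treated worms differed from controls in 46 of the 177 hairpins (26.0%) at an adjusted p under 0.05 in edgeR's quasi-likelihood test. Of these, 21 were higher (11.9%) and 25 were lower (14.1%). Most changes were small: the called rises ran from 1.13-fold to 2.21-fold with a median of 1.20-fold, and the called falls from 1.12-fold to 1.55-fold with a median of 1.21-fold. Only mir-2220 and mir-792 among the rises and mir-71 among the falls changed by more than 1.5-fold. The median log2 fold change over all 177 was 0.01, a centre that the TMM scaling sets near 0 and that says nothing of the total level. In whole worms, fewer cells of a type and less RNA per cell cannot be told apart.

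The 3 rotenone libraries did not overlap the 3 DMSO libraries in 69 of the 177 hairpins (39.0%), with rotenone higher in 33 (18.6%) and lower in 36 (20.3%). Among the called hairpins, the exception was mir-80, whose groups overlapped. Calls were rare among scarce hairpins, where the error was large: 5 of the 84 hairpins with a mean under 100 CPM (reads scaled to a common library total) were called, against 17 of 43 from 100 to 1000 CPM, 15 of 30 from 1000 to 10000 CPM and 9 of 20 above that. In the same order of level, 2, 9, 9 and 5 of these hairpins were called lower and 3, 8, 6 and 4 higher. The shares over all tested that stand beside the lists below include the scarce hairpins. They are therefore low as a background for lists of abundant hairpins. With libraries scaled by their totals alone, 23 were called higher and 17 lower. In a fit over all 12 libraries of the series the split was 11 higher and 35 lower, while all 46 kept their sign in both fits. A fit with a lane term kept all 46 calls and made 74. Among the hairpins described below as not called it added lin-4, mir-34, mir-37, mir-38, mir-57, mir-58a, mir-64, mir-73, mir-2208a, mir-4807, mir-4809 and 3 tissue markers.

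**Figure D1:**
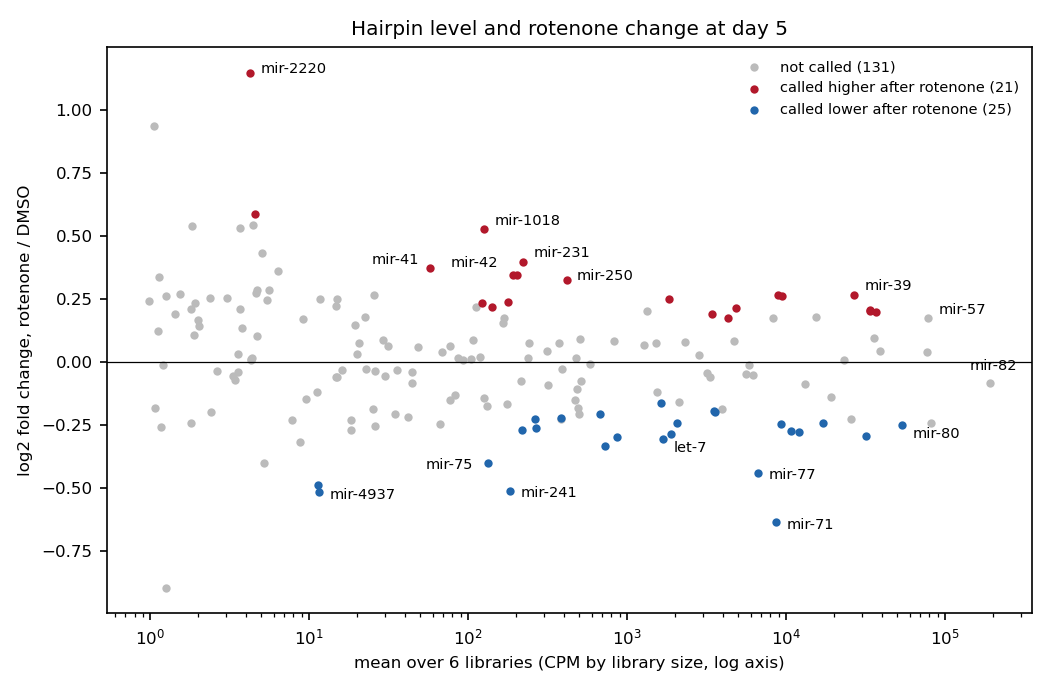
Each point is 1 of the 177 tested hairpins, with its mean level over the 6 libraries in CPM on a log x axis and its log2 fold change, rotenone over DMSO, on the y axis. The 21 called rises (red) and 25 called falls (blue) lie mostly above 100 CPM, and mir-71 stands lowest among the called hairpins at -0.64.

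The clearest fall was that of mir-71, whose loss is known to shorten the life of worms. Its level, in CPM scaled by the TMM method, was 10288, 10506 and 10918 in the DMSO libraries and 6833, 6562 and 7002 in the rotenone libraries. Every rotenone library lay far below every DMSO library, and the spread within either group was small beside the gap. The mean fell from 10571 ± 320 to 6799 ± 222 CPM (SD, n = 3), a 1.55-fold drop (log2 -0.64 ± 0.05 SE; edgeR adjusted p = 8.19e-06). Leaving out any one library gave log2 values from -0.66 to -0.60.

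The annotation places mir-71 on chromosome I in an intron of ppfr-1, which encodes a regulatory subunit of a protein phosphatase, on the same strand as mir-2 and close to it. The mir-2 hairpin was at 1164, 1355 and 1255 CPM in DMSO and at 1312, 1274 and 1365 CPM in rotenone. These groups overlapped, and the log2 difference was 0.07 with a 95% interval from -0.06 to 0.20. The ratio of mir-71 to mir-2 reads was 8.84, 7.76 and 8.70 in DMSO and 5.21, 5.15 and 5.13 in rotenone. An exact permutation test of the ratio gave p = 0.1 (two-sided), the smallest that 3 against 3 libraries allow.

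Hairpins that time development were lower as a group. Of the 6 heterochronic hairpins (let-7, mir-48, mir-84, mir-241, lin-4 and mir-237), 5 fell, against 14.1% over all tested, and none rose. The median log2 fold change was -0.26 against 0.01 over all tested. The mir-48 and mir-241 hairpins share a cluster and are not separate events. The summed share of all 6 heterochronic hairpins was 2.88, 2.93 and 2.55% of the reads in DMSO and 2.43, 2.45 and 2.22% in rotenone. These groups did not overlap. Between 4 and 6 of them were called lower when any one library was left out.

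Within the let-7 family, 4 of 7 members fell, against 14.1% over all tested, none rose, and the median was -0.24. The let-7 hairpin, whose product represses lin-41 at the passage from larva to adult, was at 1966, 1784 and 1839 CPM in DMSO and 1596, 1557 and 1366 CPM in rotenone. All 3 rotenone values lay below the DMSO values, a 1.24-fold fall (log2 -0.31 ± 0.06 SE; edgeR adjusted p = 0.0055). Its relatives mir-48, mir-84 and mir-241 act earlier in larval life and repress hbl-1.

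Among these, mir-241 had the largest fall in the family. It stood at 223, 228 and 201 CPM in DMSO and at 166, 152 and 139 CPM in rotenone, with no overlap, which is 1.43-fold lower (log2 -0.51 ± 0.08 SE; edgeR adjusted p = 0.000961). Its neighbour on chromosome V, mir-48, was far more abundant and fell less, from 13848, 12990 and 13052 CPM to 11439, 11227 and 10238 CPM (log2 -0.28 ± 0.06 SE; edgeR adjusted p = 0.00559). The ratio of mir-48 to mir-241 reads was 62.1, 57.0 and 64.9 in DMSO and 68.8, 74.0 and 73.5 in rotenone, again without overlap (exact permutation p = 0.1).

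The mir-84 hairpin fell from 2242 ± 79.2 to 1896 ± 92.1 CPM (log2 -0.24 ± 0.05 SE; edgeR adjusted p = 0.00588). Log2 values of -0.08 for mir-793, -0.14 for mir-794 and -0.13 for mir-795 were not called. All 4 calls in the family were kept without any one library.

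In the lin-4 family the abundant member was called and the founding member was not. The lin-4 product represses lin-14 and lin-28, and mir-237 is its homolog. The mir-237 hairpin was at 9693, 10890 and 9736 CPM in DMSO and at 8532, 8758 and 8295 CPM in rotenone, below all DMSO values (log2 -0.24 ± 0.06 SE; edgeR adjusted p = 0.00938). Its call was lost with DMSO replicate 2 or rotenone replicate 1 left out and with libraries scaled by their totals. For lin-4 itself the values were 435, 451 and 352 CPM against 355, 332 and 372 CPM. Those groups overlapped: DMSO replicate 3, of lane L007, was the low one, and the log2 difference was -0.36 in lane L006 and 0.12 in lane L007. The pooled value was -0.23 ± 0.08 (SE; edgeR adjusted p = 0.0683).

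**Figure D2:**
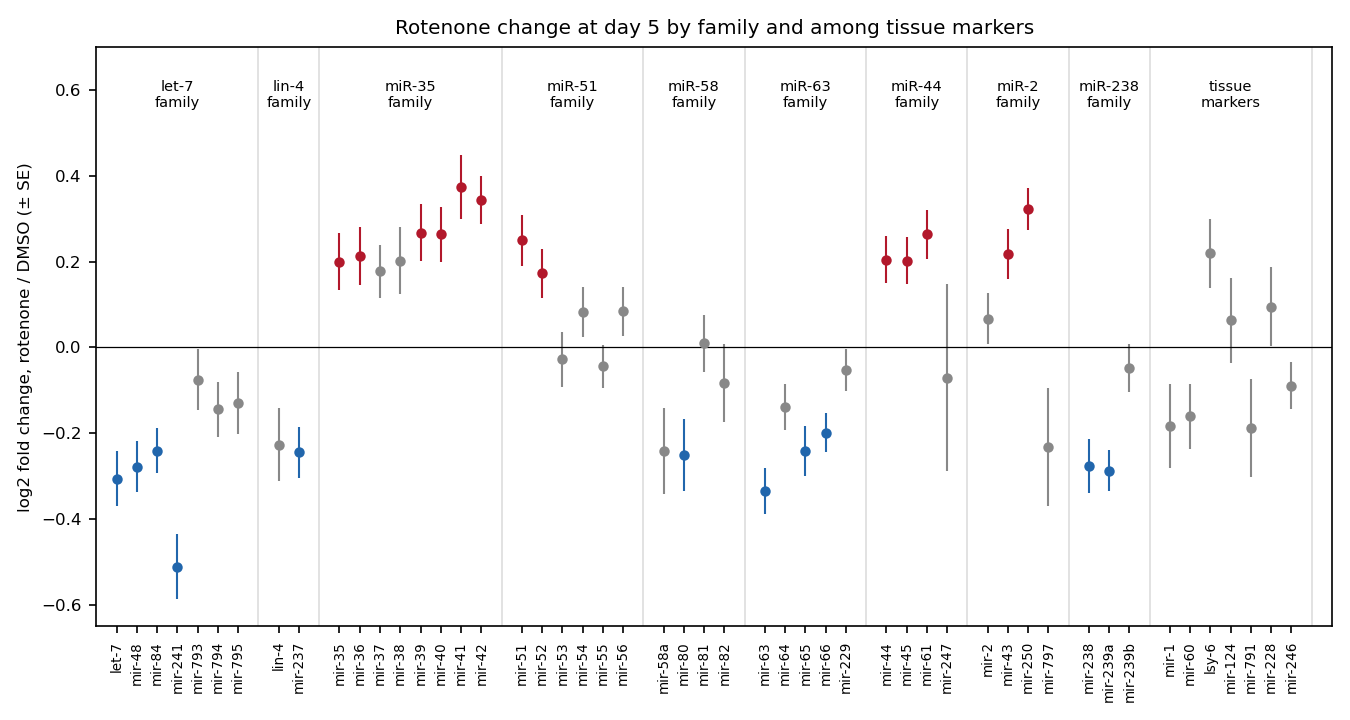
Points give the log2 fold change, rotenone over DMSO, of each tested member of 9 families and of the tissue markers, with bars of 1 SE, and are coloured red where called higher, blue where called lower and grey otherwise. The miR-35 members all lie above 0 and the let-7, lin-4, miR-63 and miR-238 members all lie below it.

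The miR-35 family moved the other way. These hairpins, mir-35 to mir-42, are made in oocytes and embryos and are essential for embryogenesis in worms. Of the 8 members, 6 rose, against 11.9% over all tested, and none fell. All 8 estimates were positive, against 93 of the 177 tested, and the median was 0.24. The family took 8.59, 9.35 and 8.16% of the reads in DMSO and 10.3, 10.2 and 10.6% in rotenone, with no overlap, a mean gain of 1.66 percentage points. These hairpins are also the oocyte and embryo markers of the whole worms, and the part of those cells in the other results was not tested.

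The scarcer members rose most. The mir-42 hairpin was at 182, 179 and 180 CPM in DMSO and at 228, 221 and 237 CPM in rotenone, a clean separation with a 1.27-fold rise (log2 0.34 ± 0.06 SE; edgeR adjusted p = 0.00101). For mir-41 the values were 51.0, 51.0 and 48.5 CPM against 63.5, 62.5 and 69.1 CPM, which also did not overlap (log2 0.37 ± 0.08 SE; edgeR adjusted p = 0.00425).

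More abundant members rose by less. The mir-39 hairpin went from 23735, 23010 and 26793 CPM to 29923, 28586 and 30001 CPM (log2 0.27 ± 0.07 SE; edgeR adjusted p = 0.0102), with every rotenone library above every DMSO library. For mir-40 the log2 value was 0.26 ± 0.07 (SE; edgeR adjusted p = 0.0101). The calls of mir-36 (0.21, adjusted p = 0.0368) and mir-35 (0.20, adjusted p = 0.0453) were closer to the threshold, and mir-37 (0.18, adjusted p = 0.0523) and mir-38 (0.20, adjusted p = 0.0782) missed it in the same edgeR test.

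The number of members called higher depended on single libraries. It was 3 without rotenone replicate 1, 4 without DMSO replicate 1 or without rotenone replicate 3, and at most 7 with another library left out. In the fit over all 12 libraries it was 3. The family median stayed between 0.18 and 0.30 over all settings run. The mir-35 to mir-41 hairpins lie within 1 cluster on chromosome II, in introns of Y62F5A.9 on the opposite strand, so they share a locus and are not separate events.

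The miR-44 family, which promotes sperm fate in the hermaphrodite germline, also took more reads. Its share was 7.14, 7.20 and 6.81% in DMSO and 8.43, 8.34 and 8.22% in rotenone, without overlap, a gain of 1.28 points. Of its 4 members, 3 rose, against 11.9% over all tested, and the median was 0.20. However, mir-44 and mir-45 have nearly equal counts in every library and amount to 1 uncertain measurement. The mir-44 hairpin was at 31292, 31276 and 32242 CPM in DMSO and at 36890, 35986 and 36386 CPM in rotenone (log2 0.20 ± 0.05 SE; edgeR adjusted p = 0.0142). Its call was lost in the fit over all 12 libraries and when DMSO replicate 1 or 2 or rotenone replicate 1 or 2 was left out, which left 1 member of the family called.

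That member was mir-61, whose product represses vav-1 in vulval precursor cells. It rose from 7990, 7666 and 8662 CPM to 9779, 9816 and 9599 CPM, and the groups did not overlap (log2 0.26 ± 0.06 SE; edgeR adjusted p = 0.00559). The mir-250 hairpin, a member of the miR-2 family that lies beside mir-61 on chromosome V, rose with it. Its values were 367, 381 and 364 CPM in DMSO and 464, 460 and 469 CPM in rotenone (log2 0.32 ± 0.05 SE; edgeR adjusted p = 0.000976). There were 21.9 ± 1.85 reads of mir-61 for each of mir-250 in DMSO and 21.0 ± 0.446 in rotenone (SD, n = 3; exact permutation p = 0.5).

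Besides mir-250, the miR-2 family had 1 more called rise, mir-43 (log2 0.22 ± 0.06 SE; edgeR adjusted p = 0.0147), while mir-2 and mir-797 were not called. The mir-43 hairpin lies between mir-42 and mir-44 on chromosome II, and all 3 hairpins of that cluster rose. Like mir-44, mir-43 lost its call over all 12 libraries and in 4 of the 6 fits with a library left out, while mir-42 kept its call in all of these.

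The miR-51 family is related to miR-100 and active in the embryo. Among its 6 members 2 rose, against 11.9% over all tested, and none fell, with a median of 0.08. The mir-51 hairpin went from 1816, 1684 and 1565 CPM to 2024, 1924 and 2075 CPM, with no overlap (log2 0.25 ± 0.06 SE; edgeR adjusted p = 0.00908). The rise of mir-52 was weaker (log2 0.17 ± 0.06 SE; edgeR adjusted p = 0.0453) and its call was lost in most settings with a library left out. The other 4 members had log2 values from -0.04 to 0.08.

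Falls outnumbered rises in the miR-63 family, with 3 of 5 members lower, against 14.1% over all tested, none higher and a median of -0.20. The mir-63 hairpin was at 803, 770 and 869 CPM in DMSO and at 649, 637 and 650 CPM in rotenone. Its groups did not overlap, and the fall was 1.26-fold (log2 -0.33 ± 0.05 SE; edgeR adjusted p = 0.00101). The others, mir-229, mir-64, mir-65 and mir-66, sit together in an intron of gcn-1 on chromosome III.

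Within that intron the 4 log2 estimates ran from -0.24 to -0.05. The values of mir-65 were 19624, 17884 and 17927 CPM against 15692, 16130 and 15083 CPM (log2 -0.24 ± 0.06 SE; edgeR adjusted p = 0.00963), and mir-66 was also lower (log2 -0.20 ± 0.05 SE; edgeR adjusted p = 0.00744). The log2 values of mir-64 and mir-229 were -0.14 ± 0.05 and -0.05 ± 0.05 (SE; edgeR adjusted p = 0.0768 and 0.477). Whether these 4 changes differ from each other was not tested. Without rotenone replicate 1 the family had 1 called fall, that of mir-63.

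The miR-238 family holds members with opposite known effects on lifespan: loss of mir-238 shortens it and loss of mir-239 extends it. Of the 3 hairpins, 2 fell, against 14.1% over all tested, with a family median of -0.28. The values of mir-238 were 11740, 12784 and 10869 CPM in DMSO and 9837, 9842 and 9554 CPM in rotenone (log2 -0.28 ± 0.06 SE; edgeR adjusted p = 0.00744). The values of mir-239a were 2135, 2013 and 2145 CPM against 1712, 1748 and 1697 CPM (log2 -0.29 ± 0.05 SE; edgeR adjusted p = 0.00107). Neither pair of groups overlapped. The mir-238 call was lost with libraries scaled by their totals alone, while that of mir-239a was kept in every setting with a test. For mir-238 the log2 difference was -0.31 in lane L006 and -0.15 in lane L007. In mir-239b the log2 difference was -0.05 with a 95% interval from -0.17 to 0.07.

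Over the 13 hairpins tied to lifespan and stress in worms, 6 fell and none rose, against 14.1% lower over all tested, and the median was -0.23. The number lower was 10 with a lane term, 9 within lane L006 or over all 12 libraries, and 4 with library size alone. The called members were mir-71, mir-238, mir-239a, mir-80, mir-84 and mir-241. Of these, mir-238 and mir-80 lie in 1 cluster on chromosome III with mir-90, which was not called (log2 0.04). Their 2 falls may therefore not be separate events. The ratio of mir-238 to mir-80 reads was 0.213, 0.222 and 0.171 in DMSO and 0.207, 0.217 and 0.173 in rotenone (exact permutation p = 0.8). Since this list holds mir-71, mir-84 and mir-241, it is not separate from the falls given above. The stress-linked mir-34, related to a p53-regulated microRNA of mammals, was at 1603 ± 41.6 CPM in DMSO and 1476 ± 51.3 CPM in rotenone (SD, n = 3) and was not called (log2 -0.12 ± 0.05 SE; edgeR adjusted p = 0.0882).

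The miR-58 family, the worm relatives of bantam, is the most abundant in these libraries, and 1 of its 4 tested members fell. The mir-80 hairpin, which has a part in the response to dietary restriction, was at 55014, 57476 and 63664 CPM in DMSO and at 47420, 45327 and 55356 CPM in rotenone. The highest rotenone library, replicate 3, lay above the lowest DMSO library, and the call was weak (log2 -0.25 ± 0.08 SE; edgeR adjusted p = 0.0459). It was lost in 7 settings, including the RLE size factors. For mir-58a the values were 81638, 79934 and 105467 CPM against 72672, 71998 and 81186 CPM. The DMSO library of lane L007 was the high one, and mir-58a was not called (edgeR adjusted p = 0.0959).

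**Figure D3:**
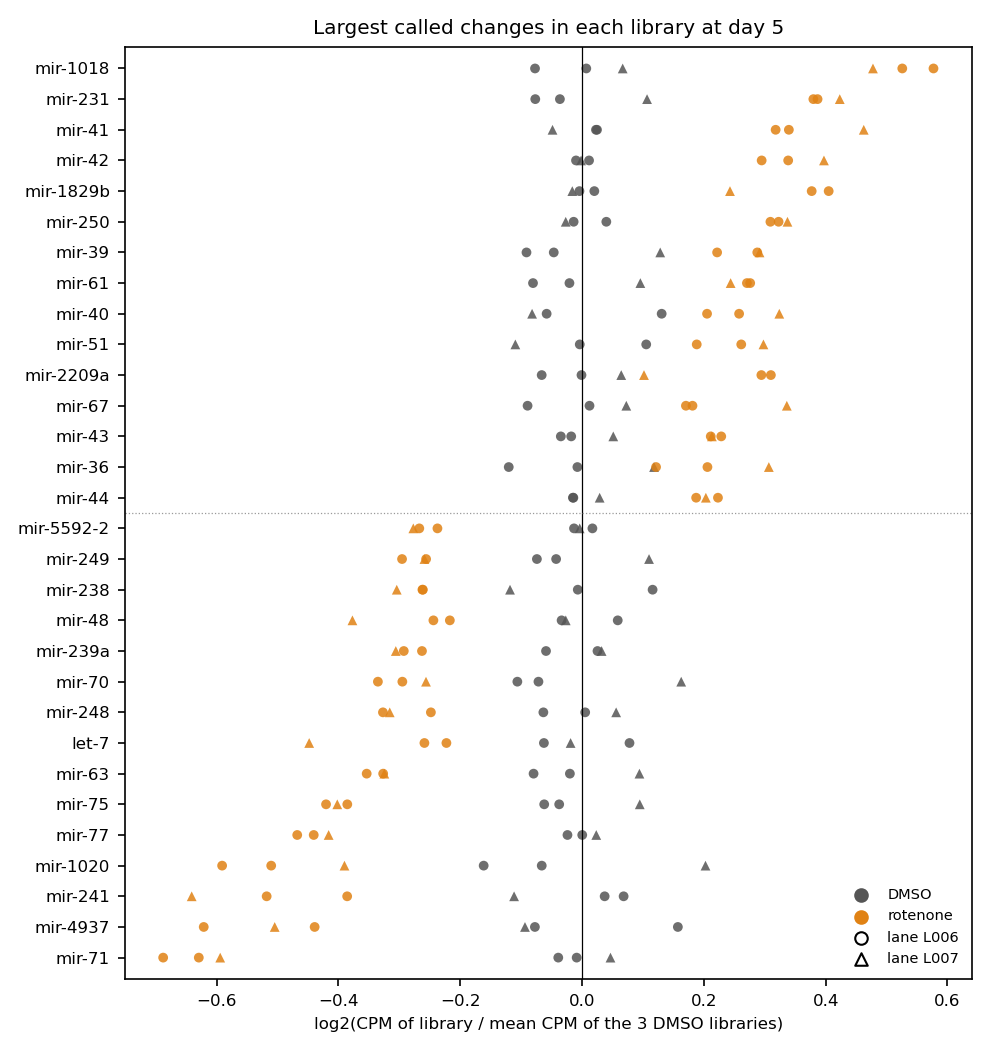
Each row is 1 of the 15 largest called rises (top) or 15 largest called falls (bottom) with a mean of at least 10 CPM, and each point is 1 library as log2 of its CPM over the mean of the 3 DMSO libraries, grey for DMSO and orange for rotenone, with circles for lane L006 and triangles for lane L007. The 2 colours do not overlap in any row, and mir-71 has the widest gap among the falls.

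Several hairpins outside these families had larger or steadier changes. The mir-77 hairpin on chromosome II was at 7739, 7610 and 7863 CPM in DMSO and at 5701, 5595 and 5798 CPM in rotenone. Within each group the values lay very close together, and the fall was 1.36-fold (log2 -0.44 ± 0.05 SE; edgeR adjusted p = 8.51e-05). The mir-231 hairpin on chromosome III rose from 182, 187 and 206 CPM to 249, 251 and 257 CPM, a 1.32-fold rise (log2 0.40 ± 0.06 SE; edgeR adjusted p = 0.000979).

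On the X chromosome, mir-248 fell from 958, 914 and 993 CPM to 804, 761 and 767 CPM (log2 -0.30 ± 0.05 SE; edgeR adjusted p = 0.00141). There mir-249 fell from 229, 234 and 260 CPM to 202, 196 and 201 CPM (log2 -0.27 ± 0.06 SE; edgeR adjusted p = 0.00775). Neither had overlapping groups. The mir-70 hairpin, in an intron of pmp-5 on chromosome V, went from 33324, 32533 and 39203 CPM to 27758, 28541 and 29320 CPM (log2 -0.30 ± 0.07 SE; edgeR adjusted p = 0.0102). All of its rotenone values were the lower ones.

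The mir-75 hairpin fell while its neighbours did not. It was at 146, 148 and 162 CPM in DMSO and at 116, 114 and 115 CPM in rotenone, 1.32-fold lower with no overlap (log2 -0.40 ± 0.06 SE; edgeR adjusted p = 0.00101). The mir-73 and mir-74 hairpins, which precede it in the same cluster on the X chromosome, had positive values of 0.18 ± 0.08 and 0.09 ± 0.06 (log2, SE) and were not called. The ratio of mir-74 to mir-75 reads was 3.20, 3.21 and 3.25 in DMSO and 4.48, 4.39 and 4.73 in rotenone (exact permutation p = 0.1, the smallest possible). The relative of mir-75 in sequence, mir-79, lies on chromosome I and had a log2 value of 0.08 ± 0.06 (SE).

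A cluster on the plus strand of the X chromosome held the largest called rise, that of mir-2220. It starts at position 1872466 of the WBcel235 assembly and holds 11 hairpins over 7573 bases. The abundant one is mir-1018, at 97.8, 104 and 108 CPM in DMSO and at 149, 154 and 144 CPM in rotenone. The groups were well apart, and the rise was 1.44-fold (log2 0.53 ± 0.06 SE; edgeR adjusted p = 0.000202).

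Of the other 10 hairpins in the cluster, 5 were tested, and all 5 had positive values. The mir-2220 hairpin had 19, 24 and 32 reads in DMSO and 56, 59 and 58 reads in rotenone, a 2.21-fold rise (log2 1.15 ± 0.24 SE; edgeR adjusted p = 0.00559), and it was the only one of the 5 to be called. The log2 values of the others were 0.53 for mir-4807, 0.54 for mir-4809, 0.21 for mir-4810a and 0.33 for mir-4923b. The 10 hairpins together had 15.7, 13.8 and 15.9 CPM in DMSO and 22.5, 22.8 and 24.9 CPM in rotenone, with no overlap. This grouping was made after the values were seen.

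The mir-1829 and mir-2209 groups, listed with mir-2208a and mir-2208b, had 2 called rises and no called fall among 7 tested members. The share called higher over all tested was 11.9%, and the median of the 7 was 0.24. The lowest value was that of mir-2208a, at -0.90 (log2; edgeR adjusted p = 0.0829). With a lane term, 3 of the 7 were called higher and 1, mir-2208a, lower. The mir-1829b hairpin, in an intron of F20D1.3, rose from 170, 167 and 166 CPM to 218, 222 and 199 CPM (log2 0.34 ± 0.06 SE; edgeR adjusted p = 0.00173). Its relative mir-1829a lies in an intron of gas-1, which encodes a subunit of complex I, and had a log2 value of 0.08 ± 0.12 (SE; edgeR adjusted p = 0.678). The rise of mir-2209a was 0.24 ± 0.07 (log2, SE; edgeR adjusted p = 0.0239), at 0.34 in lane L006 and 0.08 in lane L007. Its call was lost over all 12 libraries and kept in 2 of the 6 fits with a library left out.

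At about 10 CPM, mir-4937 and mir-1020 fell. The mir-4937 hairpin was at 13.0, 15.3 and 12.9 CPM in DMSO and at 10.1, 8.92 and 9.67 CPM in rotenone (log2 -0.52 ± 0.13 SE; edgeR adjusted p = 0.00968). The mir-1020 hairpin, from an intron of T16G12.1, was at 12.1, 12.9 and 15.5 CPM against 8.96, 9.47 and 10.3 CPM (log2 -0.49 ± 0.14 SE; edgeR adjusted p = 0.0177). The mir-4937 fall rested on 81 to 152 reads per library, and its call was lost without DMSO replicate 2. The mir-1020 call was lost without DMSO replicate 3 or without rotenone replicate 1. Of the 3 tested hairpins listed as mirtrons, which are cut from short introns by splicing, mir-1020 fell, mir-1018 rose and mir-62 was not called, and the annotation used here places mir-1018 outside protein-coding genes.

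Among the remaining calls, mir-792 rose by 0.59 on the log2 scale on 32 to 61 reads per library, and its call was lost in 7 settings. The mir-244 and mir-67 hairpins rose by 0.19 and 0.23. Both calls were lost over all 12 libraries and kept in 2 of the 6 fits with a library left out. The mir-355, mir-253, mir-240 and mir-47 hairpins had log2 values of -0.22, -0.21, -0.19 and -0.16. Their calls were kept in 5, 2, 4 and 2 of the 6 fits with a library left out. Of the pair mir-240 and mir-786, which regulates the defecation rhythm, mir-240 was called and mir-786 was not (-0.15 ± 0.10, SE). The mir-5592-1 and mir-5592-2 hairpins (-0.23 and -0.26) occupy the same stretch of the X chromosome on opposite strands and count as 1 uncertain measurement.

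No tissue marker passed the test in the fit with group alone. With a lane term, mir-1 and mir-60 were called lower and lsy-6 higher (edgeR adjusted p = 0.00126, 0.00179 and 0.00282). Of the 7 (mir-1 of muscle, mir-60 of intestine, lsy-6, mir-124 and mir-791 of neurons, mir-228 of glia and mir-246 of the gonadal sheath), 3 had positive and 4 negative values, with a median of -0.09. The muscle marker mir-1 was at 476, 483 and 609 CPM in DMSO and at 469, 405 and 506 CPM in rotenone, and the intestinal mir-60 at 2106, 2147 and 2464 CPM against 1935, 1859 and 2215 CPM. Both pairs of groups overlapped, with log2 values of -0.18 ± 0.10 and -0.16 ± 0.08 (SE; edgeR adjusted p = 0.186 and 0.127). All 7 were detected in the whole-worm samples, with group means from 23.6 CPM (mir-791) to 37042 CPM (mir-228). The summed share of the 7 was 4.49 to 5.52% in DMSO and 4.84 to 5.68% in rotenone.

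In share of reads, the changes moved 5.44 percentage points from the 99 hairpins that lost share to the 138 that gained it. The largest single gain was that of mir-57, a hairpin tied to posterior cell fate and the gene nob-1, from 7.44, 6.98 and 7.33% of the reads to 8.48, 8.52 and 8.12%. These groups did not overlap, yet on the TMM scale mir-57 was not called (log2 0.17 ± 0.07 SE; edgeR adjusted p = 0.0815). Next came mir-35, mir-39, mir-44 and mir-45, with gains of 0.577, 0.561, 0.554 and 0.546 points.

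Most of the loss came from abundant hairpins. The mir-58a hairpin lost 1.16 points, mir-80 0.814, mir-82 0.625, mir-70 0.571 and mir-71 0.359. The most abundant hairpin, mir-82, took 18.9, 18.6 and 21.1% of the reads in DMSO and 18.9, 18.2 and 19.6% in rotenone. Its groups overlapped, and its loss came from DMSO replicate 3. The 5 most abundant hairpins (mir-82, mir-58a, mir-57, mir-72 and mir-80) held 48.3% of the reads, and of these 1, mir-80, was called.

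**Figure D4:**
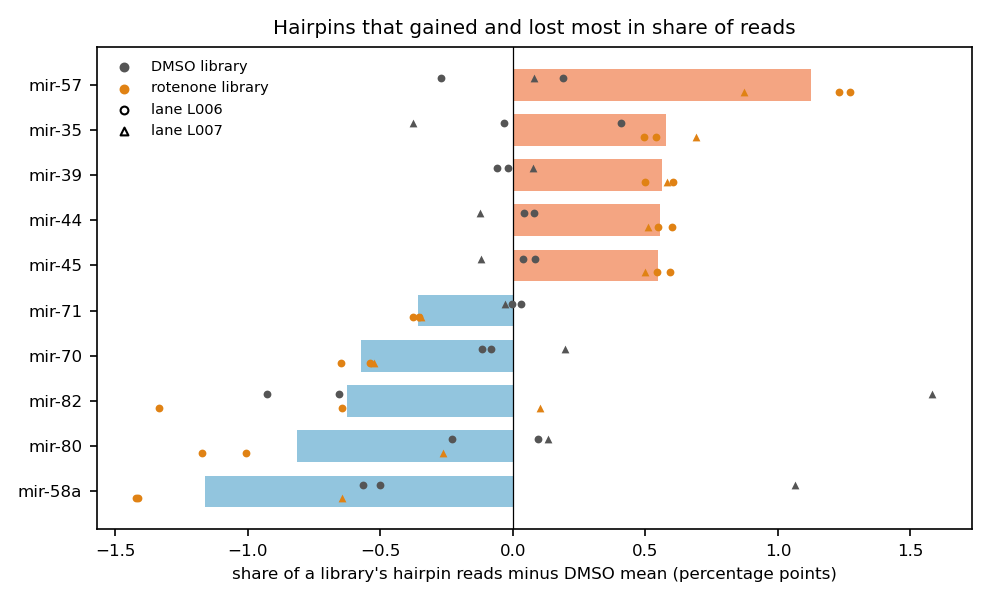
Bars give the mean change in share of reads, rotenone minus DMSO in percentage points, for the 5 hairpins that gained and the 5 that lost most, and points give each library minus the DMSO mean (grey DMSO, orange rotenone, circles lane L006, triangles lane L007). The gain of mir-57 is the largest, at 1.13 points, and the DMSO triangle of mir-58a and mir-82 lies well to the right of the other DMSO points.

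By chromosome, 9 of the 32 hairpins tested on II rose and 2 fell, with a median of 0.16, and 6 of those 9 belong to the miR-35 family. On X, 3 of 59 rose and 12 fell, with a median of -0.03. Over all chromosomes 11.9% rose and 14.1% fell, and no chromosome was tested against the others. The other chromosomes had from 1 to 3 called rises and from 1 to 5 called falls each.

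The effect of rotenone was then compared between the labelled ages of 5 and 15 days, in a model of all 12 libraries. The difference between the effects passed an adjusted p under 0.05 in 12 of the 181 hairpins tested (6.63%, edgeR quasi-likelihood test). All 12 were among the hairpins called at 5 days, 3 of them rises and 9 falls. The difference contains the effect at 5 days from the same libraries, so this overlap was favoured in advance and is no separate support. In that model the effect on mir-71 was -0.69 at 5 days and -0.02 at 15 days (log2). The effect on mir-241 was -0.57 at 5 days and 0.08 at 15 days, and on mir-1018 it was 0.47 and 0.02. For the other 34 called hairpins a difference between the ages was not called, which does not show that the effects were alike.

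Of the 46 calls at 5 days, 24 were kept with any one library left out, 10 higher and 14 lower, and 22 were kept in every setting that allowed a test. These 22 were mir-1018, mir-231, mir-41, mir-42, mir-1829b, mir-250, mir-61, mir-51 and mir-2220 among the rises, and mir-71, mir-77, mir-241, mir-48, mir-84, let-7, mir-75, mir-63, mir-239a, mir-248, mir-249, mir-70 and mir-5592-2 among the falls. The last counts as 1 uncertain measurement with mir-5592-1, whose call was kept in 14 of 17 settings. In lane L007, with 1 library of each group and no test, all 46 had the same sign as in the pooled fit. The pooled fit that made the calls includes these libraries, so this agreement was favoured in advance and is no separate support.

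**Figure D5:**
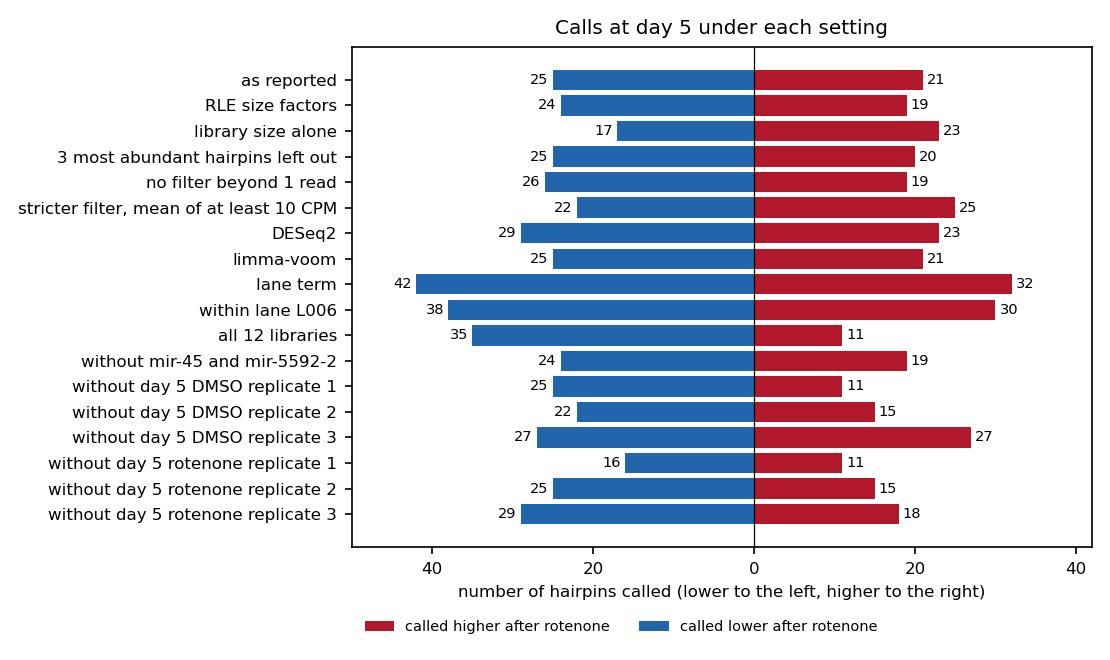
Bars to the right count hairpins called higher after rotenone and bars to the left those called lower, for the fit as reported (21 and 25) and for each alternative. The counts run from 11 to 32 higher and from 16 to 42 lower, with the lane term giving the most calls.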

How the data were processed

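Small RNA libraries were made with a TruSeq small RNA kit, per the labels' protocols. Each deposited value is a raw count of reads on a hairpin precursor, which merges its 2 arms. The submitters' processing notes name BWA 0.7.12-r1039, SAMtools 1.3.1-9, Trimmomatic 0.36 and bcl2fastq 1.8.4, with no role or order. Of the genome build, the hairpin reference and the counting of reads with several matches, none is given in the sources used here. Near-identical hairpins are therefore uncertain.

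Groups were taken from the labels, and replicate numbers follow accession order and pair no samples. Counts of the 6 libraries were filtered with filterByExpr (minimum count 10), scaled by TMM and tested in R 4.3.3 with the quasi-likelihood F test of edgeR 4.0.16, with group as the only term. Benjamini-Hochberg adjustment ran over 177 hairpins, and a call needed an adjusted p under 0.05. The 73 untested hairpins, 13 of them with no read, held 0.00192% of the reads and at most 19 in a library. The CPM of 3 counts was 0.272 to 0.339. The SE of a log2 fold change is its absolute value over the root of F. CPM values per library and group are TMM-scaled, while shares and means over 6 libraries use library size alone. These are relative levels, not amounts. The script was tested on simulated data.

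Within a group, pairs of libraries had a chi-square of 30.7 to 446 over its degrees of freedom, where sampling error alone would give about 1, so none was taken for a copy. The comparison with 15 days used the interaction contrast over all 12 libraries. Coordinates came from the WBcel235 annotation by name, with 245 hairpins matched by Ensembl name, 1 by RefSeq symbol and 4 unmatched. Clusters are hairpins of 1 strand at most 10 kb apart. The named hairpins are the called ones with a mean of at least 10 CPM, up to 15 rises and 15 falls ranked by size, with tested list members, the 5 most abundant and the 5 largest gains and losses in share. The other called hairpins and the clusters were added after their values were seen. The hairpins and lists were chosen with earlier results of these data known. Alternatives were RLE size factors, library size alone, the 3 most abundant hairpins left out, other filters, DESeq2 1.42.0, limma-voom (limma 3.58.1), a lane term, single lanes, all 12 libraries, near-identical hairpins removed and each library left out. Figures were drawn with matplotlib 3.10.9 in Python 3.11.15.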

Additional observations from a re-analysis of the deposited data

Results flagged for a closer look

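In 12 hairpins the effect of rotenone differed between the labelled ages of 5 and 15 days, by the interaction term of edgeR's quasi-likelihood test over all 12 libraries (adjusted p under 0.05 over 181 hairpins). The difference given is the log2 effect at 5 days minus the log2 effect at 15 days. Of these, 9 were negative. The largest was that of mir-71 at -0.68 ± 0.09 (SE; adjusted p = 5.02e-06, edgeR), followed by mir-241 at -0.65 ± 0.13 (adjusted p = 0.00159). The values of mir-77 and mir-75 were -0.45 and -0.43, those of mir-249 and mir-248 were -0.42 and -0.41, and those of mir-239a, mir-63 and mir-48 were -0.38, -0.36 and -0.35. The 3 positive ones were mir-1018 at 0.45, mir-1829b at 0.36 and mir-250 at 0.33. The adjusted p of these 10 ran from 0.00159 to 0.0328.

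In the same model the group means of mir-71 were 10874 ± 539 CPM in DMSO and 6725 ± 111 CPM in rotenone at 5 days, and 3355 ± 76.4 and 3316 ± 84.5 CPM at 15 days (SD, n = 3). The mir-71 level was thus lower in both groups at 15 days than in either group at 5 days. For mir-1018 the means were 106 ± 7.50 and 147 ± 7.49 CPM at 5 days, and 202 ± 16.1 and 205 ± 17.0 CPM at 15 days. How many differences were called, and in which direction, varied with the scaling and with single libraries. Library size alone gave 7 positive and 4 negative, and leaving out the 3 most abundant hairpins gave 10 positive and 3 negative. Without day 5 rotenone replicate 2 there were 0 positive and 8 negative, and without day 15 rotenone replicate 3 there were 4 of each.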

How the results depend on the processing

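No paired analysis was possible because the labels give no replicate numbers. None of the 46 calls turned its direction in any setting, but 61 of the 131 hairpins not called changed sign in at least 1, lin-4 among them. The 46 calls became 74 (32 higher, 42 lower) with a lane term, and 38 were called lower within lane L006; all 12 libraries gave 11 higher. Leaving out 1 library gave 27 to 54 calls, 11 to 27 higher and 16 to 29 lower. The lowest totals came without rotenone replicate 1 (27, with 11 higher and 16 lower), and 11 were higher without DMSO replicate 1. The 12 differences between ages became 29 with a lane term and 8 to 19 with 1 library left out (19 without day 5 DMSO replicate 3). The causes were not tested. The 40 to 52 calls under the other scalings, filters and tools lay within 1.5 times the 46 reported. In 776 recomputed tests of the 46 called hairpins, the call was kept in 677 and lost in 99.

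With 3 libraries a group, changes in hairpins under 100 CPM had a median SE of 0.17 on the log2 scale, so small changes there were not detectable. The replicates may share a culture, and no total amount of microRNA was measured.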
